A study of Rattus norvegicus with 6 samples.

Results

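The enzymes that build and sulfate glycosaminoglycan chains were followed in nucleus pulposus cells, taken as primary cells from rats of the Sprague Dawley strain (SD in the labels). The members were 43 named genes, and the deposited gene table held 1 row for each of 42 of them, out of 19088 gene rows. Chst13 was not analysed here. Of the 42, 5 belong to the linker that joins every chain to its core protein, 15 to chondroitin and dermatan sulfate, 15 to heparan sulfate and 7 to the supply of sulfate and sugar nucleotides. The Control group was 3 samples given only DMSO for 48 h. The rShh group was 3 samples given recombinant Sonic hedgehog, dissolved in DMSO, at 200 ng/ml for 48 h. All 6 were grown in DMEM/F12 with fetal bovine serum and antibiotics, and poly(A) RNA was sequenced. The labels do not say whether samples of a group came from separate animals or cultures, so the spread behind each p-value may be technical.

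Nucleus pulposus is the hydrated core of the intervertebral disc, and it holds water through the negative charge of chondroitin sulfate chains on aggrecan. A chain starts when xylose and a short linker are put on a serine of a core protein. It then becomes chondroitin sulfate, which is turned into dermatan sulfate where an epimerase acts, or heparan sulfate. Sulfotransferases add sulfate at set positions, using the activated sulfate donor PAPS. Heparan sulfate binds many secreted ligands, Hedgehog proteins among them, so its sulfation is studied for its part in ligand retention and signalling.

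A Control library held 50758195 to 55501124 counts, and an rShh library 65116846 to 70031072. Mitochondrial transcripts took 1.97% to 2.28% and 3.25% to 3.36% of them. Of the 20 genes on chromosome Y, 4 had 0 counts in each Control library and 912 to 7120 counts in the rShh libraries. For every enzyme, what goes with this difference between the groups cannot be told apart from what goes with the ligand. The labelled cell type was checked against 13 marker names, of which 9 were measured. Their summed level was 196 to 215 CPM (counts scaled to the size of a library) in the Control group and 851 to 869 CPM in the rShh group, most of it from Acan and Hif1a. Without these genes it was 66.9 to 73.7 and 22.6 to 25.7 CPM. Of the 8 markers tested with edgeR, Acan, Hif1a, Ca12 and Sox9 rose and Cd24, Krt8, Foxa2 and Col2a1 fell, and the median log2 change over the 8 was -0.37. Col2a1 and Krt18, a cartilage collagen and a notochordal keratin, were near 0, at no more than 97 and 9 counts in any library. Krt19 and T, the notochordal transcription factor also called Tbxt, were not analysed here. Summed markers of annulus and tendon cells (4 of 5 measured) were at 210 to 256 CPM in the Control group and 114 to 122 CPM in the rShh group, where Scx and Fmod fell while Thbs4 and Mkx rose. Without Scx and Fmod the sum was 16.6 to 18.6 and 57.0 to 59.8 CPM. The markers of endothelial cells (2 of 5 measured) were at 4.86 to 7.13 and 1.89 to 2.20 CPM, those of leukocytes (3 of 5) at 0.17 to 0.67 and 0.36 to 0.99 CPM, those of muscle (2 of 4) at 56.2 to 92.6 and 84.0 to 106 CPM, and those of erythroid cells (1 of 3) at 0 and at 0.16 to 0.28 CPM. The part of these differences in the results for the enzymes was not tested. In bulk RNA, a change in the share of cells and a change in RNA per cell cannot be told apart.

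Levels below are the deposited FPKM values, which are fragments scaled by a length and by the depth of the library. For some genes that length was not the one behind the isoform values, so levels are compared between genes only roughly. Fold changes, with their standard errors (SE), come from the deposited counts, fitted over all genes with edgeR. A gene passed the test at a Benjamini-Hochberg adjusted p below 0.05. Of the 42 enzymes, 40 had enough counts to be tested, in every library of either group. Of these 40, 18 rose and 13 fell, while 9 missed the threshold, which is 77.5% called where 60.3% of all 14775 genes tested were called. Among all genes, 31.5% rose and 28.8% fell. Changes of at least 2-fold past the same threshold were seen in 12 enzymes (30.0%), against 18.7% of all genes. Of these, 7 were higher and 5 lower, where 13.0% of all genes passed 2-fold upwards and 5.71% downwards. The median log2 change was 0.14 for the 40 enzymes and 0.01 for all genes, and the median size of a change, regardless of sign, was 0.65 and 0.49. For 34 of the 40 the values of the groups did not overlap, which held for 68.1% of all genes tested.

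**Figure D1:**
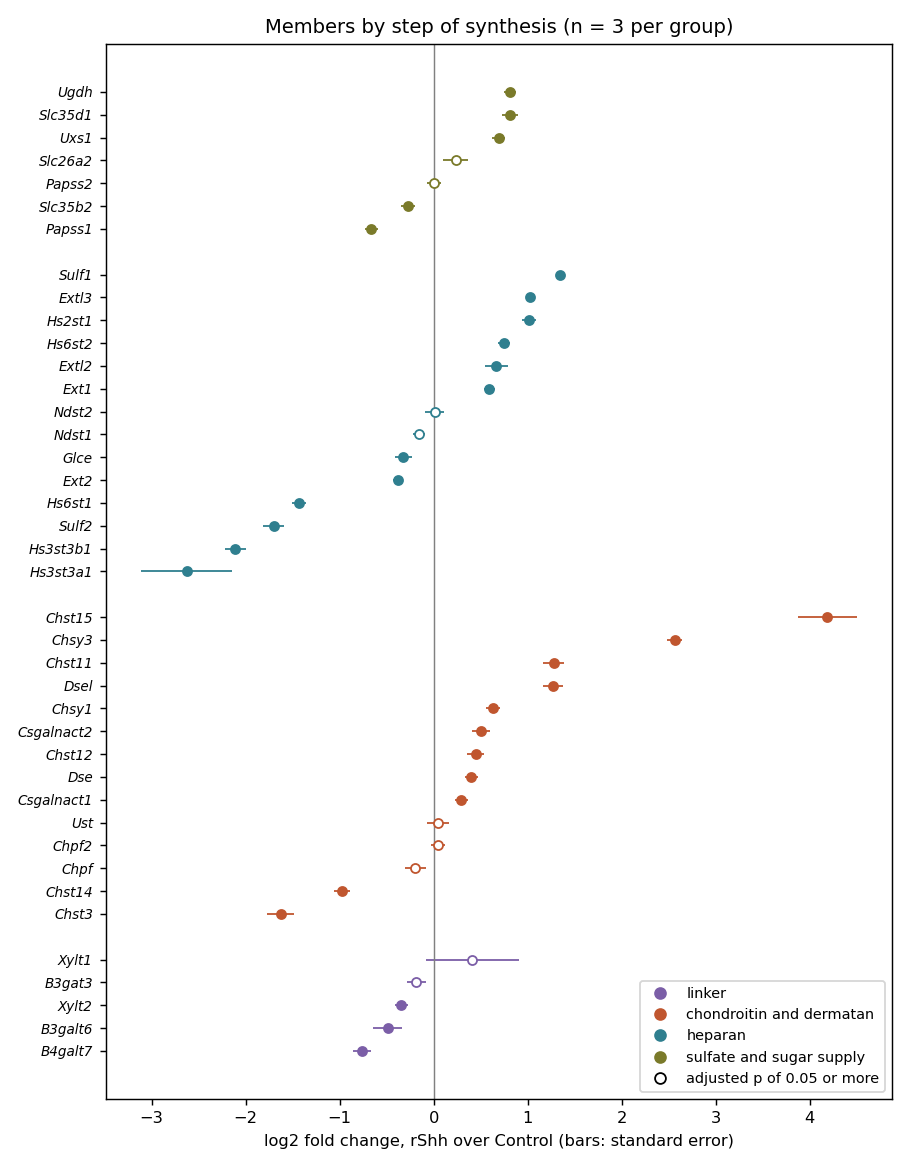
Log2 fold change of the rShh over the Control group for the 40 enzymes tested, by step, with bars for the standard error of the fit over 3 samples per group; filled points passed the threshold. Linker points lie left of zero except Xylt1, and heparan points spread from -2.63 to 1.35.

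**Figure D2:**
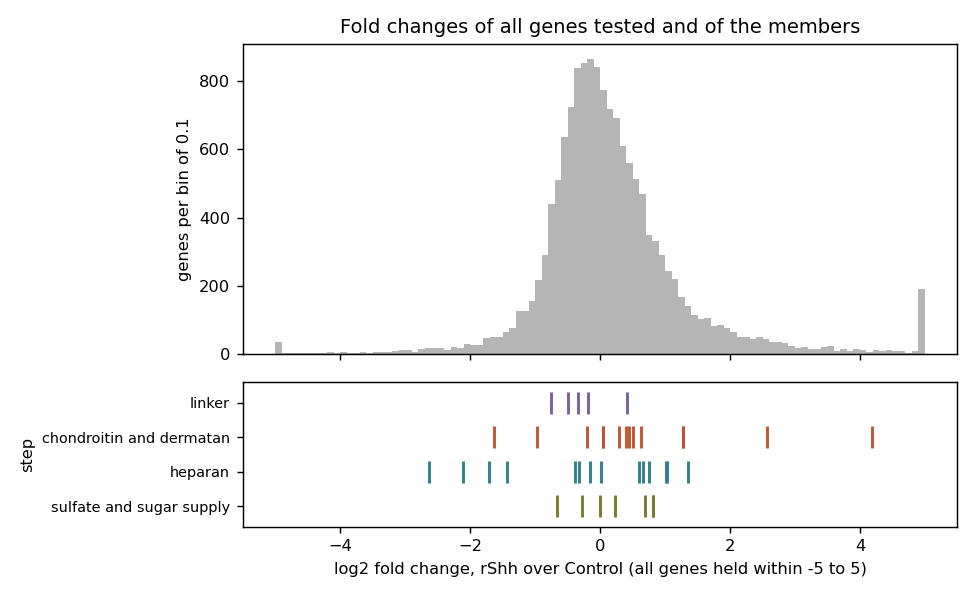
Upper panel, number of genes in each 0.1 of log2 fold change for all 14775 genes tested, with changes beyond 5 drawn at 5; lower panel, 1 mark for each enzyme by step. The marks for chondroitin, dermatan and heparan enzymes reach far to the sides of the peak, to 4.19 for Chst15 and -2.63 for Hs3st3a1.

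Promoter windows of 300 bases, from 250 bases before to 50 after the gene start, were taken from RefSeq (build GRCr8) and matched 34 of the 42 genes by symbol. There were none for B3galt6, Chst14, Csgalnact1, Csgalnact2, Ext1, Ext2, Extl3 and Sulf1. The consensus of the GLI factors that carry Hedgehog signals, gaccaccca on either strand, was in none of the 34 and in 0.385% of all 33469 windows, which says only that these letters were not in these windows. The GC box, gggcgg on either strand, was in 21 of 34, and in 33.1% of all windows. It was in 6 of the 13 windows of enzymes that rose, 8 of the 10 of those that fell and 6 of the 9 not called. The TATA box, tataaa on either strand, was in 2 of 34 and in 14.2% of all windows. CpG dinucleotides numbered 25 in the median window of the 34 and 7 in that of all windows, which were not limited to the genes tested.

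The windows printed here, 5 in all, were chosen for the enzyme with the largest change and for the pairs that moved apart or together, 5′ to 3′ with GC and TATA boxes in capitals. They are those of Chst15 (GRCr8, chr1:196491134-196491433, minus strand), Hs6st1 (chr9:45779152-45779451, plus), Hs6st2 (chrX:136182105-136182404, minus), Hs3st3a1 (chr10:49592958-49593257, plus) and Hs3st3b1 (chr10:49093136-49093435, minus).
Chst15: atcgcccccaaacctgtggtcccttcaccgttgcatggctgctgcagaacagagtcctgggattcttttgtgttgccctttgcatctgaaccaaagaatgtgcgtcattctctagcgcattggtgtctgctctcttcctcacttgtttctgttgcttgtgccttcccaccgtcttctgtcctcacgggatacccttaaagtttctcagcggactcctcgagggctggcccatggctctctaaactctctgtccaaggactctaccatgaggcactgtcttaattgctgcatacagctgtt
Hs6st1: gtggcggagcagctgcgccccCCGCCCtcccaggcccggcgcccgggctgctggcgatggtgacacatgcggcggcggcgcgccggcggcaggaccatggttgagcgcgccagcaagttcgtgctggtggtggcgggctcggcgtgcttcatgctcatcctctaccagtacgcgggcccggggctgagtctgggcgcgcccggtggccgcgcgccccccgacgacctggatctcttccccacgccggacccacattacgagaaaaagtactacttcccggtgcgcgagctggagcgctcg
Hs6st2: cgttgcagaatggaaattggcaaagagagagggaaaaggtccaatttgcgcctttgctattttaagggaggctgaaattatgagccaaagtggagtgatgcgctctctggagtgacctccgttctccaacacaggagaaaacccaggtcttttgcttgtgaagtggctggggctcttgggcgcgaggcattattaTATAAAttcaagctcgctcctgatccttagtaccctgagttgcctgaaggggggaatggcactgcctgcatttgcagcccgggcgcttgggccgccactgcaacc
Hs3st3a1: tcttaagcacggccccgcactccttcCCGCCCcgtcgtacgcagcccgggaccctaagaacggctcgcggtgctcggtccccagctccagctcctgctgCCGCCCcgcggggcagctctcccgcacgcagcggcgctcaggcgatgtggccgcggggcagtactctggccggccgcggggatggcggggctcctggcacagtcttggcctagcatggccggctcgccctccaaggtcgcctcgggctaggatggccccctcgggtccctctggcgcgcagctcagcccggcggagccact
Hs3st3b1: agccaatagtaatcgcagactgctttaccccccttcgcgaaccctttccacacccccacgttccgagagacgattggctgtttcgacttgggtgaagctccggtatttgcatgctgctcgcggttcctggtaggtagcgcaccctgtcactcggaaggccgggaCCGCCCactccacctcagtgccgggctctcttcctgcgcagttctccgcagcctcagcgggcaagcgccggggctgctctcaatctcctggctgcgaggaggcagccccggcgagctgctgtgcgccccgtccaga
The window of Chst15 held 8 CpG dinucleotides and neither box. That of Hs6st1 held 39 and 1 GC box, and that of its paralogue Hs6st2 held 10 and 1 TATA box. From atggttgag to its end, the Hs6st1 window can be read as codons without a stop. Its CpG number may thus include coding sequence. Those of Hs3st3a1 and Hs3st3b1 held 34 and 25, with 2 GC boxes and 1.

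No enzyme of the linker rose. Of its 5 genes, 3 fell and 2 missed the threshold. That is 60.0% called, near the 60.3% of all genes, of which 28.8% fell. Their median log2 change was -0.34. Xylosyltransferases start the linker, and nearly all of their message came from Xylt2. Xylt2 was at 10.2, 10.8 and 10.1 FPKM in the Control samples and at 8.28, 8.22 and 8.18 FPKM in the rShh samples. The groups did not overlap, and the log2 change was -0.34 (SE 0.07, edgeR adjusted p = 0.00149). Xylt1 had only 22 to 64 counts per library, at 0.136 to 0.258 FPKM in the Control group and 0.145 to 0.313 FPKM in the rShh group, and did not pass.

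B4galt7, which adds the first galactose of the linker, had the largest change of this step. It was at 27.2, 24.4 and 31.4 FPKM in the Control samples and at 15.1, 16.97 and 17.3 FPKM in the rShh samples. Every Control value lay above every rShh value, and the log2 change was -0.76 (SE 0.10, edgeR adjusted p = 8.11e-05). B3galt6, which adds the second galactose, was at 4.23, 4.98 and 5.02 FPKM and at 3.97, 2.83 and 3.38 FPKM. Its groups stood close without overlapping, and the log2 change was -0.49 (SE 0.15, edgeR adjusted p = 0.0181). This call was lost without Control replicate 2 (edgeR adjusted p = 0.0589), and likewise without rShh replicate 2 (edgeR adjusted p = 0.0741) or rShh replicate 3 (edgeR adjusted p = 0.0543). B3gat3, which adds the closing glucuronic acid, was the most abundant linker enzyme. It was at 36.2, 35.4 and 45.9 FPKM in the Control samples and at 34.9, 34.9 and 34.3 FPKM in the rShh samples. Control replicate 3 was high among its group, and the gene did not pass (log2 change -0.18, SE 0.10, edgeR adjusted p = 0.126), but did without Control replicate 1 (edgeR adjusted p = 0.0474).

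Enzymes of chondroitin and dermatan sulfate mostly rose. The test called 11 of 14 genes, 9 of them higher and 2 lower, or 78.6% against 60.3% of all genes. The median log2 change over the 14 was 0.42. At least 2-fold changes were 4 increases and 1 decrease, or 35.7% against 18.7% of all genes. The increases covered chain start, chain growth, epimerisation and sulfation of N-acetylgalactosamine at the 4 position, by Chst11 and Chst12, and at the 6 position of units sulfated at the 4 position, by Chst15. The decreases were in Chst3 and Chst14. Chst7 was too low to be tested, with 0 counts in each Control library, which allows up to 3, and 9, 0 and 12 counts in those given rShh.

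**Figure D3:**
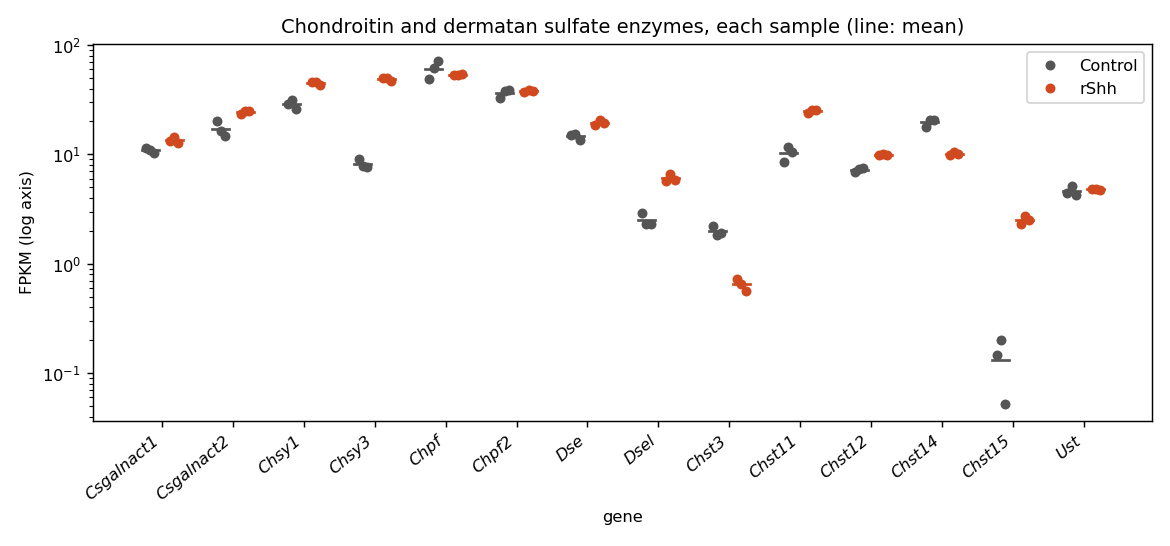
FPKM on a log axis of 14 chondroitin and dermatan sulfate enzymes in each of the 3 Control and 3 rShh samples, with a line at each mean. Chsy3 and Chst15 stand far above their Control values, and Chst3 and Chst14 below theirs.

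The first N-acetylgalactosamine, which commits a chain to chondroitin sulfate, is added by Csgalnact1 and Csgalnact2. Csgalnact1 rose from 10.9 ± 0.572 to 13.4 ± 0.820 FPKM (SD, n = 3) and Csgalnact2 from 17.2 ± 2.89 to 24.5 ± 0.778 FPKM. Chsy3, a synthase that lengthens the chain by its repeating disaccharide, had the smallest p of all 40 enzymes. It was at 9.15, 7.89 and 7.66 FPKM in the Control samples and at 50.3, 50.4 and 46.4 FPKM in the rShh samples. The groups were far apart, and the fitted change was 5.92-fold (log2 change 2.56, SE 0.08, edgeR adjusted p = 4.51e-09). Its paralogue Chsy1 rose from 28.8 ± 2.98 to 45.0 ± 1.76 FPKM, or 1.55-fold. Chsy1 made up 76.0% to 80.1% of the summed FPKM of the pair in the Control samples and 47.7% to 48.1% in the rShh samples, and the sum went from 37.1 ± 3.24 to 94.0 ± 4.05 FPKM.

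The polymerising factors Chpf and Chpf2, which work as partners of the synthases, did not follow. Chpf was the most abundant enzyme of this step in either group by mean FPKM. It was at 49.3, 62.1 and 71.2 FPKM in the Control samples and at 53.4, 52.8 and 54.4 FPKM in the rShh samples. The groups overlapped, since Control replicate 1 lay below the rShh samples, and the log2 change was -0.20 (SE 0.11, edgeR adjusted p = 0.157). Without Control replicate 1 it was -0.34 and passed (edgeR adjusted p = 0.00105). Chpf2 was at 36.7 ± 3.45 and 38.0 ± 0.951 FPKM (log2 change 0.04, SE 0.07).

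Sulfation of N-acetylgalactosamine at its 4 position is the work of Chst11 and Chst12 on chondroitin. Chst11 was at 8.48, 11.7 and 10.5 FPKM in the Control samples and at 24.0, 25.6 and 25.3 FPKM in the rShh samples. All rShh values were above all Control values, and the fitted change was 2.42-fold (log2 change 1.28, SE 0.11, edgeR adjusted p = 5.05e-06). Chst12 rose less, from 7.25 ± 0.299 to 9.94 ± 0.193 FPKM. Chst15, which adds a sulfate at the 6 position of N-acetylgalactosamine that already carries one at the 4 position, was nearly absent in the Control group. Its counts were 35, 46 and 12 with DMSO alone and 625, 788 and 685 with the ligand, or 0.145, 0.201 and 0.0527 against 2.29, 2.75 and 2.52 FPKM. The fitted change of 18.2-fold was the largest of all enzymes (log2 change 4.19, SE 0.31, edgeR adjusted p = 1.93e-06), yet in the rShh group Chst15 stayed below Chst11 and Chst12.

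The sulfotransferases Chst3 and Chst14 fell. Chst3 sulfates the 6 position of N-acetylgalactosamine, the main modification of mature cartilage chondroitin. It was at 2.21, 1.82 and 1.93 FPKM in the Control samples and at 0.725, 0.648 and 0.568 FPKM in the rShh samples. The groups were well apart, and it was 3.09-fold lower (log2 change -1.63, SE 0.14, edgeR adjusted p = 5.93e-06). Chst14 sulfates the 4 position in dermatan sulfate. It was at 17.8, 20.7 and 20.8 FPKM and at 9.88, 10.4 and 10.1 FPKM, without overlap (log2 change -0.98, SE 0.08, edgeR adjusted p = 4.79e-06). Of the summed FPKM of Chst3, Chst7, Chst11 and Chst12, Chst3 and Chst7, which act at the 6 position, made up 12.6%, 8.8% and 9.7% in the Control samples and 2.2%, 1.8% and 1.8% in the rShh samples. The log2 ratio of Chst3 and Chst7 to Chst11 and Chst12 was 2.54 lower in the rShh group, from a mean of -3.13 to -5.68, given as a description since it sums members. This fall rests on leaving out Chst15. Counting Chst15 among the 6 position enzymes was a choice made after seeing the data. Their share was then 13.3%, 9.63% and 9.90% in the Control samples. In the rShh samples it was 8.32%, 8.69% and 8.22%, and the change in the log2 ratio was -0.40. From the same counts, isoform values in Control replicate 1 were higher for Chst11 (9.41 against 8.48 FPKM) and Chst15 (0.187 against 0.145 FPKM). The shares thus depend on the length used, and shares from isoform values were not computed.

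The epimerases Dse and Dsel, which turn glucuronic into iduronic acid and so make dermatan sulfate, rose while Chst14, the sulfotransferase of that chain, fell. Dsel was at 2.88, 2.32 and 2.30 FPKM in the Control samples and at 5.68, 6.65 and 5.89 FPKM in the rShh samples. The groups did not overlap, and the fitted change was 2.41-fold (log2 change 1.27, SE 0.11, edgeR adjusted p = 5.13e-06). Dse, the more abundant, rose from 14.7 ± 0.983 to 19.5 ± 1.04 FPKM. Ust, which sulfates the uronic acid, was at 4.61 ± 0.466 and 4.78 ± 0.0728 FPKM and did not pass.

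Heparan sulfate enzymes changed in either direction. The test called 12 of 14 genes, 6 of them higher and 6 lower, or 85.7% against 60.3% of all genes. The median log2 change over the 14 was -0.07. Regardless of sign the median change was 0.88, against 0.49 for all genes, and 7 changed at least 2-fold, 3 higher and 4 lower. That is 50.0%, against 18.7% of all genes. Hs3st1 was too low to be tested, with at most 5 counts in a library. The increases were in Ext1, Extl2, Extl3, the 2-O-sulfotransferase Hs2st1, 1 of the 6-O-sulfotransferases and 1 of the extracellular sulfatases. The decreases were in Ext2, the epimerase Glce, the 3-O-sulfotransferases tested, and the other 6-O-sulfotransferase and sulfatase.

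**Figure D4:**
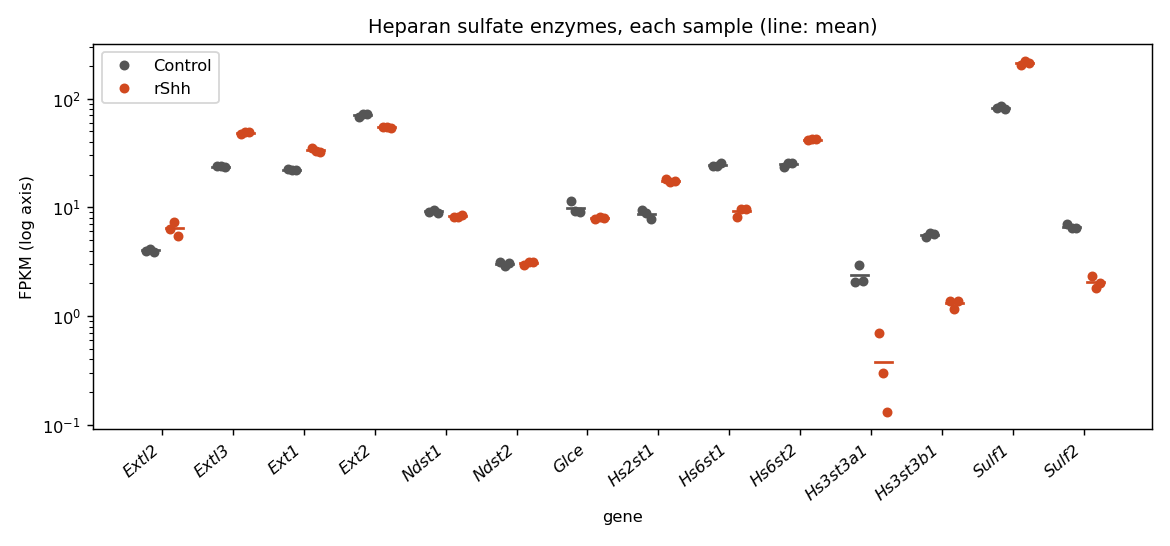
FPKM on a log axis of 14 heparan sulfate enzymes in each of the 3 Control and 3 rShh samples, with a line at each mean. Hs6st1 and Hs6st2 start level in the Control group and part in the rShh group, Sulf1 and Sulf2 move apart, and Hs3st3a1 and Hs3st3b1 are both lower in the rShh group.

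Extl3 adds the first N-acetylglucosamine and so commits a chain to heparan sulfate. It was at 24.0, 23.9 and 23.2 FPKM in the Control samples and at 47.6, 49.7 and 48.7 FPKM in the rShh samples. Replicates lay close to each other, and the fitted change was 2.04-fold (log2 change 1.03, SE 0.05, edgeR adjusted p = 8.47e-08). Its relative Extl2 rose from 4.0 ± 0.137 to 6.39 ± 0.965 FPKM. Ext1 and Ext2, which form the polymerase as a complex, went opposite ways: Ext1 rose from 22.0 ± 0.249 to 33.4 ± 1.45 FPKM (log2 change 0.59, SE 0.06) and Ext2 fell from 70.6 ± 2.37 to 54.6 ± 0.395 FPKM (log2 change -0.38, SE 0.05). Ext2 stayed the more abundant, and their sum was 92.6 ± 2.14 and 87.9 ± 1.63 FPKM.

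The first modifying enzymes moved little. Ndst1 and Ndst2, which replace acetyl by sulfate on glucosamine, did not pass, at 9.16 ± 0.298 and 8.26 ± 0.143 FPKM for Ndst1 and at 3.02 ± 0.139 and 3.06 ± 0.0941 FPKM for Ndst2. Ndst1 passed without Control replicate 1 or Control replicate 3 (edgeR adjusted p = 0.0439 and 0.0479). Glce, the epimerase of heparan sulfate, fell from 9.92 ± 1.38 to 7.98 ± 0.178 FPKM (edgeR adjusted p = 0.00985). Hs2st1 sulfates the iduronic acid that Glce makes, and it rose. It was at 9.36, 8.81 and 7.73 FPKM in the Control samples and at 18.0, 17.1 and 17.5 FPKM in the rShh samples, a 2.02-fold change without overlap (log2 change 1.01, SE 0.08, edgeR adjusted p = 2.15e-06).

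The 6-O-sulfotransferases went opposite ways. Hs6st1 was at 24.1, 24.0 and 25.7 FPKM in the Control samples and at 8.13, 9.61 and 9.72 FPKM in the rShh samples. It was 2.71-fold lower without overlap (log2 change -1.44, SE 0.08, edgeR adjusted p = 1.57e-07). Hs6st2 was at 23.3, 25.7 and 25.4 FPKM and at 41.6, 42.2 and 42.1 FPKM, which is higher without overlap (log2 change 0.75, SE 0.06, edgeR adjusted p = 4.38e-06). Hs6st1 thus made up 48.3% to 50.9% of the pair in the Control samples and 16.3% to 18.8% in the rShh samples, while the sum of the pair was 49.4 ± 1.9 and 51.1 ± 1.18 FPKM. Of the promoter windows printed for the pair, that of Hs6st1, which may be partly coding sequence, is the one rich in CpG. That of Hs6st2 is the one with the TATA box. Hs6st2 lies on chromosome X (138677580 to 138972680 in the deposited coordinates, whose build is not given in the sources used here), and the groups differed in Y transcripts.

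The 3-O-sulfotransferases Hs3st3a1 and Hs3st3b1, which add the rarest modification of heparan sulfate, both fell. Hs3st3b1 was at 5.29, 5.84 and 5.68 FPKM in the Control samples and at 1.38, 1.16 and 1.38 FPKM in the rShh samples. It was 4.32-fold lower without overlap (log2 change -2.11, SE 0.11, edgeR adjusted p = 1.89e-07). Hs3st3a1 was at 2.06, 2.96 and 2.09 FPKM and at 0.698, 0.297 and 0.131 FPKM. Its rShh values were few, at 66, 30 and 13 counts, and uneven, and the log2 change of -2.63 (SE 0.48, edgeR adjusted p = 0.000901) was -3.42 without rShh replicate 1. The genes lie on chromosome 10, at 50928309 to 51014562 and 50366952 to 50402616, with 525.7 kb between them. Their coding sequences are alike, so reads may have been shared and their separate values are uncertain.

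The extracellular sulfatases Sulf1 and Sulf2, which remove 6-O-sulfate from finished chains, also parted. Sulf1 was the most abundant of all the enzymes, above 97.1% of the genes tested by mean FPKM. It was at 82.3, 85.8 and 79.4 FPKM in the Control samples and at 204, 219 and 211 FPKM in the rShh samples, a 2.55-fold change without overlap (log2 change 1.35, SE 0.05, edgeR adjusted p = 1.1e-08). Sulf2 was at 6.98, 6.46 and 6.44 FPKM and at 2.34, 1.80 and 2.00 FPKM, which is 3.25-fold lower without overlap (log2 change -1.70, SE 0.11, edgeR adjusted p = 8.76e-07). Sulf1 made up 92.2% to 93.0% of the pair in the Control samples and 98.9% to 99.2% in the rShh samples.

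**Figure D5:**
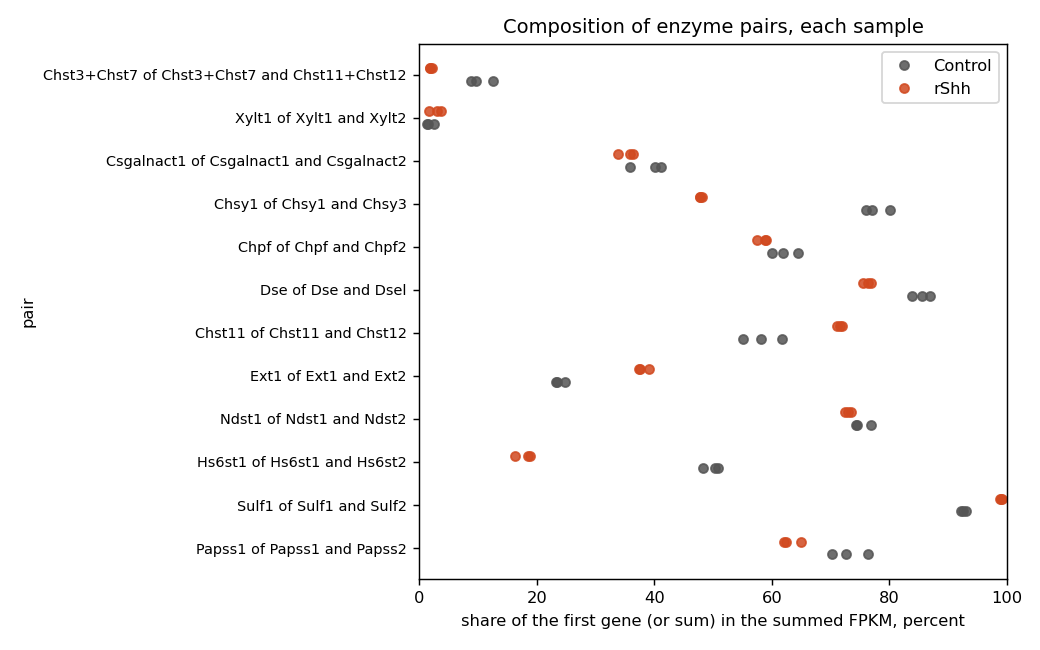
Share of the first gene, or sum of genes, in the summed FPKM of each pair of enzymes, for each of the 3 Control and 3 rShh samples. Chsy1 and Hs6st1 have the largest shifts, from 76.0% to 80.1% down to 47.7% to 48.1% and from 48.3% to 50.9% down to 16.3% to 18.8%, and Xylt1 and Csgalnact1 have groups that overlap.

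In the supply of sulfate and sugar nucleotides, the test called 5 of 7 genes, 3 of them higher and 2 lower. That is 71.4% called, against 60.3% of all genes. The median log2 change over the 7 was 0.23. The 3 that rose serve nucleotide sugars. Ugdh, which makes UDP-glucuronic acid, was the most abundant of this step over all 6 samples, though below Papss1 in the Control group. It was at 31.7, 31.6 and 32.2 FPKM in the Control samples and at 50.9, 59.5 and 58.3 FPKM in the rShh samples. It rose without overlap (log2 change 0.81, SE 0.06, edgeR adjusted p = 2.26e-06). Uxs1 turns that sugar into UDP-xylose for the linker, and was at 28.8, 24.4 and 25.3 FPKM and at 42.0, 42.4 and 43.1 FPKM (log2 change 0.69, SE 0.07, edgeR adjusted p = 1.08e-05). Slc35d1, which carries UDP-glucuronic acid and UDP-N-acetylgalactosamine into the endoplasmic reticulum, was at 4.69, 4.71 and 4.56 FPKM and at 7.87, 7.67 and 9.04 FPKM (log2 change 0.81, SE 0.09, edgeR adjusted p = 2.06e-05). For Uxs1 and Slc35d1, too, all rShh values were above all Control values.

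Of the 4 genes of this step that serve sulfate, 2 fell and 2 did not pass. Papss1, a synthase of PAPS, was at 33.3, 35.5 and 38.7 FPKM in the Control samples and at 22.7, 23.0 and 22.5 FPKM in the rShh samples, and fell without overlap (log2 change -0.67, SE 0.07, edgeR adjusted p = 1.86e-05). Its paralogue Papss2, the form linked to cartilage growth, was at 13.2 ± 1.12 and 13.3 ± 0.740 FPKM (log2 change 0.00, SE 0.08). The sum of the pair went from 49.0 ± 1.59 to 36.0 ± 0.514 FPKM. Slc35b2, which carries PAPS into the Golgi, fell from 29.9 ± 1.83 to 24.9 ± 0.845 FPKM (edgeR adjusted p = 0.00713). Slc26a2, the sulfate transporter of the cell membrane that is mutated in diastrophic dysplasia, was low, at 1.94 ± 0.0482 and 2.29 ± 0.207 FPKM, and did not pass.

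The isoform table held 53 transcripts of the 42 genes, with more than 1 transcript for 11 genes. Of the 53, 48 could be tested with edgeR on isoform counts, of which 20 were higher and 14 lower. Among all 18180 isoforms tested, 45.1% were called, 23.8% higher and 21.3% lower. Of the 2 Sulf1 transcripts, the one of 20 exons (ENSRNOT00000072411) rose by a log2 change of 1.24 (SE 0.05) and the one of 22 exons (ENSRNOT00000012610) by 1.64 (SE 0.08). The latter made up 25.2% to 28.2% of Sulf1 in the Control samples and 31.1% to 35.5% in the rShh samples, a difference that was not tested. The 2 Extl3 transcripts rose alike, by 1.02 (SE 0.06) and 1.03 (SE 0.10). The fall of Ext2 lay in its transcript of 14 exons (ENSRNOT00000083743, log2 change -0.46, SE 0.08, edgeR adjusted p = 0.00539), while that of 13 exons ranged from 3.20 to 10.5 FPKM within the rShh group and did not pass. A second Dse transcript (ENSRNOT00000088287) was at 3.64 FPKM in rShh replicate 2, at 0.0873 and 0.0141 FPKM in the other rShh samples and listed at 0 in the Control samples. The rise of Chst15 lay in the transcript of 8 exons (ENSRNOT00000022157, log2 change 4.17, SE 0.47).

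The rest of the pathway was read from 4 further lists. Of 29 other gene rows tested for synthesis and precursors, 10 rose and 4 fell, or 48.3%, below the 60.3% of all genes. B4galt1, a galactosyltransferase of keratan sulfate and other glycans, rose from 15.1 ± 1.05 to 37.0 ± 0.670 FPKM. Uap1, which makes UDP-N-acetylglucosamine, rose from 16.6 ± 1.28 to 38.2 ± 1.45 FPKM. Hs3st5, another 3-O-sulfotransferase of heparan sulfate, fell from 1.04 ± 0.317 to 0.0635 ± 0.00637 FPKM, the same direction as Hs3st3a1 and Hs3st3b1. Of 16 gene rows of lysosomal and extracellular degradation, 9 rose and 3 fell, or 75.0% against 60.3% of all genes. Ids, which removes sulfate from iduronic acid, rose from 21.3 ± 1.76 to 38.1 ± 1.19 FPKM. Galns, which removes 6-sulfate, fell from 3.88 ± 0.233 to 2.27 ± 0.0580 FPKM.

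Of 19 core proteins that carry the chains, 10 rose and 6 fell, or 84.2% against 60.3% of all genes. Acan, the aggrecan core that takes most chondroitin chains in cartilage, rose from 6.80 ± 0.905 to 71.0 ± 1.11 FPKM, and Col18a1, a heparan sulfate collagen of basement membranes, from 6.17 ± 0.557 to 205 ± 4.51 FPKM. Sdc4, a cell surface syndecan, rose from 28.6 ± 1.54 to 81.1 ± 3.84 FPKM. Among the 3 hyaluronan synthases, whose chain is neither sulfated nor bound to a core, Has2 rose from 1.03 ± 0.332 to 3.32 ± 0.343 FPKM and Has1 and Has3 did not pass.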

How the data were processed

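Poly(A) RNA was sequenced in 3 Control and 3 rShh samples. Per the submitters' processing notes, the tools were HISAT2 2.0.4 and StringTie 1.3.4d, beside cutadapt 1.9, edgeR and DESeq2, with no roles named. Genome build, annotation and strand setting were not given in the sources used here, so overlapping genes may share reads. The authors deposited whole-number counts and FPKM values per gene and per isoform, per the file headers. The counts are not normalized, and the deposited FPKM values are scaled to a length and to library size. The length behind a gene value was not always that of its transcript. Papss1, with 1 transcript and 5678 counts in Control replicate 1, was at 33.3 FPKM by gene and 35.8 FPKM by isoform. Groups were taken from the sample titles.

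Counts were filtered with filterByExpr (minimum count 10), scaled by TMM and tested over the whole table with edgeR 4.0.16 in R 4.3.3 (glmQLFit and glmQLFTest, two-sided, group as the only term), with Benjamini-Hochberg adjustment. The SE is the size of the log2 change divided by the square root of the F statistic. Overlap of groups was judged on TMM-scaled CPM. The test was checked on simulated data. Shares and sums of paralogues were taken from FPKM and described without a test. Alternatives were median-ratio scaling, DESeq2 1.42.0, no filter, limma 3.58.1 on log2(FPKM + 1) and log2(FPKM + 0.1) (mean FPKM of 1 or more), a replicate block, and leaving out each sample.

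The members and lists were chosen with earlier results of these data known. The enzymes given in full are those changed at least 2-fold past the threshold, the 4 with the smallest p and separate groups in each step, the most abundant of each step, and Hs6st2 as the paralogue of Hs6st1. Up to 3 genes with the smallest p were named from each further list, and Hs3st5, Ids, Galns and others outside the members are named by that rule. A gene that the rule would also name is not reported here. A count of 0 allows up to 3 counts, for counting error only.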

Additional observations from a re-analysis of the deposited data

How the results depend on the processing

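Of the enzymes, 18 rose and 13 fell with median-ratio scaling, DESeq2, no low-count filter and limma on either FPKM scale, as with edgeR. No called enzyme reversed under any alternative run. Over all genes, 8924 of 14775 rows were called with median-ratio scaling, 8963 of 17599 with DESeq2 and 8712 of 19088 with no filter. With limma, 7966 and 7929 of 11800 were called on log2(FPKM + 1) and log2(FPKM + 0.1). The share of all genes called thus changed with the setting. The median log2 change of the heparan step, -0.07, was -0.16 with DESeq2 and -0.16 with no filter, where Hs3st1 enters as a 15th gene. Leaving out 1 sample gave 30 to 34 enzymes called, 18 of them higher each time and 12 to 16 lower, 7838 to 9252 genes called in all, and 29 to 33 isoforms of the enzymes. On log2(FPKM + 1), which understates changes of low genes, the log2 change was 1.64 for Chst15, -0.86 for Chst3, -1.30 for Hs3st3a1 and -1.52 for Hs3st3b1. With Chst15 counted with the 6 position enzymes, an alternative chosen after seeing the data, the change in the log2 ratio of Chst3 and Chst7 to Chst11 and Chst12 moved from -2.54 to -0.40. With the replicate number as a block, 18 enzymes rose and 13 fell and 8440 genes were called in all. The correlations of same-numbered deviations were -0.06, -0.02 and -0.04, and no Control sample correlated best with its own number. With so few samples per group, these values cannot tell whether same-numbered samples shared a batch. Depth limits Xylt1, Chst7, Hs3st1 and Hs3st3a1, which had few counts.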
